A study of Mus musculus with 5 samples.

Results

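The genes of the cell division cycle and of DNA replication were followed in oviductal stromal cells of 5 mice. The 41 members were taken by name, as 41 of the 23857 rows of the expression table, and were set in 3 groups by their known role: 15 genes that act in G1 or at the entry into S phase, 11 genes of DNA replication and nucleotide supply (S-phase members), and 15 genes of G2 and mitosis (mitotic members). All 41 passed the filter on low values (a level of at least 1 TPM in at least 2 libraries, where TPM is the authors' transcript abundance on a scale that sums to the same total in every library, already divided by transcript length), so no member was left out of the fit.

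The cells were YFP-positive cells sorted from the fallopian tubes of young adult females, with 1 library from each mouse. Control mice 2 and 3 carried Pdgfra-Cre and R26Y, a reporter at Rosa26 that makes YFP once a recombinase has acted. Mice 1, 2 and 3 of the other group carried Pdgfra-Cre, R26Y and the floxed allele pair Esr1(fl/fl), so that both groups share the recombinase and the reporter and differ in the floxed Esr1 alleles. Pdgfra-Cre is active wherever the Pdgfra promoter is or was active, which takes in mesenchymal cells in general, and the sort keeps every cell in which the reporter was switched on. The ages in weeks, the stage of the estrous cycle and the strain are not given in the sources used here.

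Esr1, the targeted gene, did not separate the groups. It measured 83.3 and 77.6 TPM in the controls against 28.9, 85.0 and 169.9 TPM in the libraries labelled knockout of mice 1, 2 and 3, which goes against the label in mice 2 and 3. The values are per gene and cannot show a missing exon. Directions are therefore given for the libraries labelled Esr1 knockout, called knockout mice 1, 2 and 3 for short, against the controls. Levels are listed in a fixed order throughout, control mouse 2 before 3 and then knockout mice 1, 2 and 3. The 8 stromal markers were all expressed, at 70.5 TPM or more in every library, and summed to between 19141 and 23681 TPM in the controls and between 12711 and 16205 TPM in the libraries labelled knockout, with 4 of the 8 below both controls in all 3. Over all tested genes, 21.9% lay below both controls in this way and 11.9% above. Markers of other cells were also present. The 10 epithelial markers summed to 3028 and 3328 TPM in control mice 2 and 3 and to 2156, 12058 and 13148 TPM in knockout mice 1, 2 and 3, and 0 of the 10 lay above or below both controls in all 3. Ovgp1, the oviductal glycoprotein, made up most of each sum, and the other 9 summed to 755 and 865 TPM against 634, 1402 and 1890.0 TPM. The 8 immune markers summed to 3730 and 4034 TPM in the controls and to 3149, 1862 and 1057 TPM in knockout mice 1, 2 and 3. In sorted bulk samples such as these, fewer cells of a type and less RNA per cell cannot be told apart.

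A cell that leaves quiescence first makes D-type cyclins, which bind Cdk4 and Cdk6 and begin the phosphorylation of the retinoblastoma protein. This releases E2F factors, which switch on cyclin E and the genes of replication, while inhibitors of the Cip/Kip and Ink4 families hold the kinases back. In the next step the Mcm helicase is loaded at origins and the DNA is copied, and the mitotic genes, silent in resting cells, come on in G2. In the oviduct and uterus, estrogen is known as a signal that acts on the growth of both stroma and epithelium, in part through Myc and the cyclins.

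The timing of these groups is written in part in their promoters, and the letters of 4 members are shown because they carry the sites by which S-phase and mitotic genes are known to be switched together. Promoters were listed in RefSeq (GRCm38.p6, the assembly also called mm10, which the submitters' processing notes name) for 31 of the 41 members. The 250 bases before the listed start were searched on both strands for an E2F core (TTCCCGC, its variant TTGGCGC, the further variant TTCGCGC, and lastly the form TTGCCGC), for CCAAT, the box bound by NF-Y, and for TTTGAA, the cell cycle homology region (CHR) bound by the DREAM and MuvB complexes. Matches of different motifs or strands may overlap. An E2F core was present in 6 of 10 S-phase promoters, 3 of 12 mitotic promoters and 2 of 9 G1 promoters, against 7.97% of all 27025 promoters and 11.8% of those of tested genes. CCAAT was present in 11 of 12 mitotic, 8 of 10 S-phase and 2 of 9 G1 promoters, against 34.5% of all promoters and 35.6% of those of tested genes. The CHR letters were present in 6 of 12 mitotic, 1 of 10 S-phase and 0 of 9 G1 promoters, against 16.3% of all promoters and 11.8% of those of tested genes. A match of letters is a description and does not show that a factor was bound in these cells.

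The stretches below are the 110 bases that end before the first transcribed base of Top2a (topoisomerase II alpha, chr11:99024200-99024309), Cdk1 (the mitotic kinase, chr10:69352913-69353022), Ccnb2 (cyclin B2, chr9:70421555-70421664) and Mcm6 (a subunit of the replicative helicase, chr1:128359706-128359815), all on the minus strand of GRCm38.p6 and written 5′ to 3′ in the direction of the gene. Capitals mark E2F cores, CCAAT and TTTGAA on either strand.
Top2a: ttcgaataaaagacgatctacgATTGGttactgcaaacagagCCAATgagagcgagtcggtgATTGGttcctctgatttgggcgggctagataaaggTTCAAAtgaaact
Cdk1: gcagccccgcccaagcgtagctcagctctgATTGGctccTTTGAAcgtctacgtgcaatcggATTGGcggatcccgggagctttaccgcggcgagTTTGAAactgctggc
Ccnb2: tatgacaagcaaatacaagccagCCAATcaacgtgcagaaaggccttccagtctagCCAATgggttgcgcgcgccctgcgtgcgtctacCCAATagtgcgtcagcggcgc
Mcm6: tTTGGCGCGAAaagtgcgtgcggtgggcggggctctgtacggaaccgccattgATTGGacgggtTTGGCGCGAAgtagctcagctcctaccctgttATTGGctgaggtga
In the Top2a and Cdk1 stretches the CHR letters nearest the start follow CCAAT boxes (read as ATTGG where they lie on the other strand), the Ccnb2 stretch holds a row of 3 CCAAT boxes, and the Mcm6 stretch holds E2F cores that overlap on opposite strands beside CCAAT boxes.

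In the fit over all genes, no member passed the threshold. The values were taken as log2(TPM + 1) and fitted with limma with the genotype as the only term, and p-values were adjusted over 19292 tested genes by the Benjamini-Hochberg method. An adjusted p under 0.05 was reached by 0.0104% of tested genes in the higher and 0.0156% in the lower direction, and by 0 of 41 members. Before adjustment, p was under 0.05 for 7 higher members (Ccnd1, Ccnd2, Cdkn1b, Mcm6, Mki67, Top2a and Tpx2) and 2 lower members (Cdkn1a and Myc), where 3.7% of tested genes were higher and 9.87% lower. The direction of the background depended on the setting. Higher genes made up 27.2% of all genes past an unadjusted p of 0.05, 45.1% of them after quantile normalization, 42.8% after median-of-ratios scaling and 52.2% with library weights. Among genes with a mean TPM of at least 5 they made up 46.3%. The share was 14.2% when knockout mouse 2 was left out and 60.5% when knockout mouse 1 was, so the lean to lower genes turned without that library. Quantile normalization gave 12 higher members (5.89% of tested genes), median-of-ratios scaling 8 (6.69%) and library weights 16 (14.7%), with 2 lower members under each. The 7 higher members became 1 when control mouse 2 was left out (1.60% of tested genes), 2 for knockout mouse 2 (1.82%) and 11 for knockout mouse 1 (17.7%). The 2 lower members became 0 for control mouse 3, where 3.63% of tested genes were lower. All log2 fold changes here are knockout minus control of log2(TPM + 1), and the added 1 makes them too small for genes of low level.

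Most members nevertheless leaned to higher values under the knockout label. Fold changes on the log2 scale were above 0 for 34 of 41 members, against 47.8% of all tested genes, and for 35 and 36 members under quantile and median-of-ratios scaling. All 3 knockout libraries lay above both controls for 16 members, or 39.0%, against 11.9% of tested genes, and below both controls for 2 members, or 4.88%, against 21.9% of tested genes. These shares were taken over all tested genes and were not matched to the members by level. In knockout mouse 1 alone, 20.8% of tested genes lay above both controls and 53.9% below. The 16 were Ccnd1, Ccnd2, Cdk6, Ccne2, Cdk2, Cdkn1b and E2f1 among the G1 members, Mcm2, Mcm4, Mcm6, Mcm7 and Tyms among the S-phase members, and Top2a, Birc5, Tpx2 and Cenpe among the mitotic members. The 2 below were Cdkn1a and Myc. Leaving out control mouse 3 gave 25 in place of the 16, and leaving out knockout mouse 3 gave 26. The 2 became 5 when control mouse 2 was left out, and also 5 when knockout mouse 1 was. With fewer libraries the rule is easier to meet for every gene, so such counts can only stay or rise. The shares of all tested genes were not taken for them, and they cannot be set against 11.9% and 21.9%. The median log2 fold change was 0.29 for the G1, 0.28 for the S-phase and 0.61 for the mitotic members, beside -0.02 for all tested genes. Among genes with a mean TPM of at least 5, these medians were 0.25, 0.28 and 0.72, beside 0.099 for all such genes. The mitotic median was 0.31 without control mouse 2 and 1.01 without control mouse 3.

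**Figure D1:**
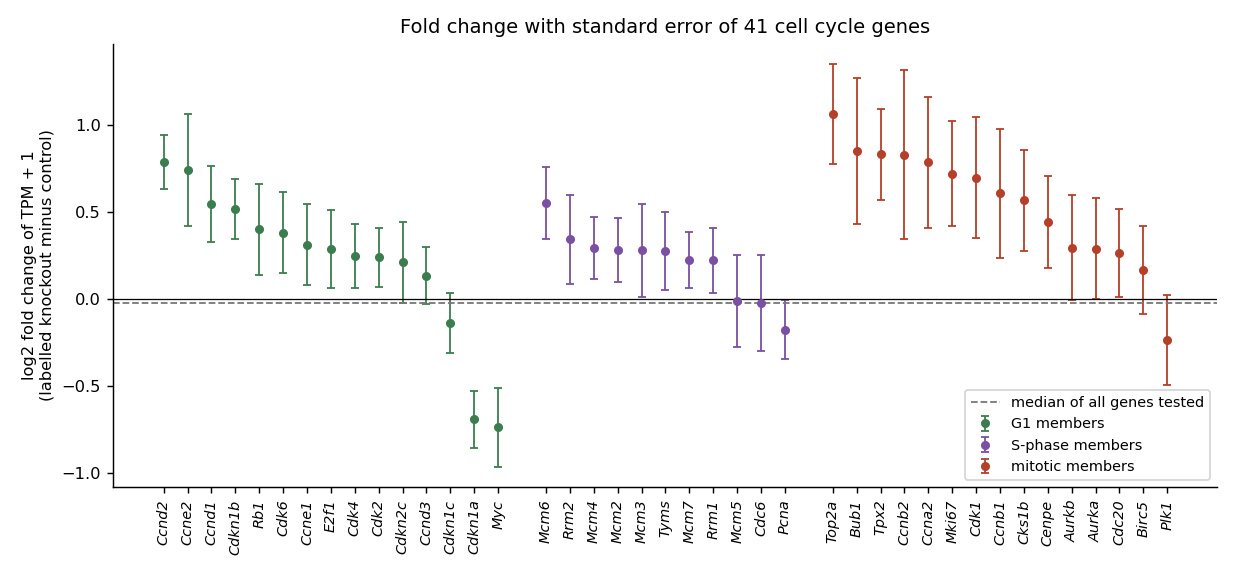
Log2 fold change of TPM + 1 (vertical axis, labelled knockout minus control) with its limma standard error for each of the 41 members, ordered within the G1, S-phase and mitotic groups; the dashed line is the median of all genes tested, at -0.02. The points run from -0.74 for Myc to 1.06 for Top2a, and 34 of 41 lie above 0.

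Among the G1 members, the D-type cyclins are the sensors of growth signals. Ccnd2 (cyclin D2) measured 59.5 and 63.0 TPM in the controls against 116, 101 and 103 TPM. The groups were well apart, with means of 61.2 ± 2.48 TPM (SD, n = 2) and 107 ± 8.22 TPM (SD, n = 3), a ratio of 1.74. Its estimate of 0.79 on the log2 scale (SE 0.16, limma adjusted p 0.160) had the smallest p of any member. Ccnd1 (cyclin D1) measured 42.8 and 46.7 TPM in the controls against 50.3, 73.3 and 76.7 TPM. Knockout mouse 1 lay close to the controls and the other knockout mice well above them (log2 fold change 0.55, SE 0.22, limma adjusted p 0.355). Ccnd3 (cyclin D3) ran from 86.0 to 91.6 TPM in the controls and from 88.2 to 109 TPM in the libraries labelled knockout, so the groups overlapped. Within a library, Ccnd2 stood at 1.39 and 1.35 times Ccnd1 in control mice 2 and 3, at 2.31 times in knockout mouse 1 and at 1.37 and 1.35 times in knockout mice 2 and 3. The balance of these cyclins thus differed in knockout mouse 1, where Ccnd2 was high and Ccnd1 was near the controls.

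The partners of the D-type cyclins differed in level more than they differed between groups. Cdk4 was the most abundant member in control mouse 2 and in all 3 knockout libraries, with 159 and 148 TPM in the controls against 153, 196 and 202 TPM. In control mouse 3 Myc stood above it, by 151 to 148 TPM. Cdk6 measured 9.01 and 8.76 TPM in the controls against 9.35, 14.6 and 12.2 TPM. Cdk4 exceeded Cdk6 by between 13.5 and 17.6 times in each library. Rb1, the substrate of these kinases and a brake on E2F, was at 34.0 and 32.5 TPM in control mice 2 and 3, 30.9 TPM in knockout mouse 1, and 52.6 and 53.1 TPM in the other knockout mice. Rb1, Cdk4 and Cdk6 therefore shared a pattern in which knockout mouse 1 was close to the controls and knockout mice 2 and 3 were higher. The epithelial markers given above were high in the same libraries, and their part in these values was not tested.

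Cyclin E and Cdk2 carry the cell over the border of S phase. Ccne2 measured 1.70 and 2.58 TPM in the controls against 3.33, 6.22 and 3.50 TPM (log2 fold change 0.74, SE 0.32, limma adjusted p 0.374). Ccne1 measured 4.29 and 5.79 TPM in the controls against 5.73, 7.21 and 6.47 TPM, so that knockout mouse 1 lay just under control mouse 3. Ccne1 was above Ccne2 in every library, by 2.53 and 2.25 times in control mice 2 and 3 and by 1.72, 1.16 and 1.85 times in knockout mice 1, 2 and 3. Cdk2 measured 17.8 and 19.9 TPM in the controls against 22.5, 21.3 and 23.4 TPM, a small separation without overlap (ratio of means 1.19). E2f1, an activating member of the E2F family, was low in all libraries, with 3.72 and 4.5995 TPM in the controls against 5.04, 5.21 and 5.57 TPM.

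The inhibitors of these kinases did not share a direction. Cdkn1a (p21, a target of p53 that is also induced by stress) measured 80.6 and 89.8 TPM in the controls against 49.8, 48.8 and 58.6 TPM. Every knockout library was below both controls, with means of 85.2 ± 6.51 TPM (SD, n = 2) and 52.4 ± 5.37 TPM (SD, n = 3), a ratio of 0.615. The estimate was -0.69 on the log2 scale (SE 0.17, limma adjusted p 0.198). Cdkn1b (p27, an inhibitor that marks resting cells) went the other way, with 74.4 and 86.8 TPM in the controls against 103, 117 and 128 TPM (log2 fold change 0.52, SE 0.17, limma adjusted p 0.300). The ratio of Cdkn1b to Cdkn1a was 0.923 and 0.966 in the controls against 2.07, 2.40 and 2.18 under the knockout label. The order of these inhibitors was thus turned round between the groups in all 5 libraries, as a description of values that were seen before the ratio was formed. Cdkn1c (p57, an imprinted inhibitor) ran from 65.8 to 72.7 TPM in the controls and from 54.9 to 69.3 TPM in the libraries labelled knockout, and Cdkn2c (p18, of the Ink4 family) from 9.84 to 9.95 TPM and from 9.19 to 14.3 TPM, so neither separated the groups.

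Myc, a transcription factor of cell growth and an early gene of many mitogens, measured 133 and 151 TPM in the controls against 103, 90.4 and 64.6 TPM. All 3 lay below both controls, with means of 142 ± 12.5 TPM (SD, n = 2) and 86.0 ± 19.5 TPM (SD, n = 3). On the log2 scale the difference was -0.74 (SE 0.23, limma adjusted p 0.267). The summed immune markers, like Myc, were below both controls in all 3 knockout libraries, highest among them in mouse 1 and lowest in mouse 3. Of the 8 markers, 5 lay below both controls, against 21.9% of tested genes. Their part in the Myc values was not tested.

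**Figure D2:**
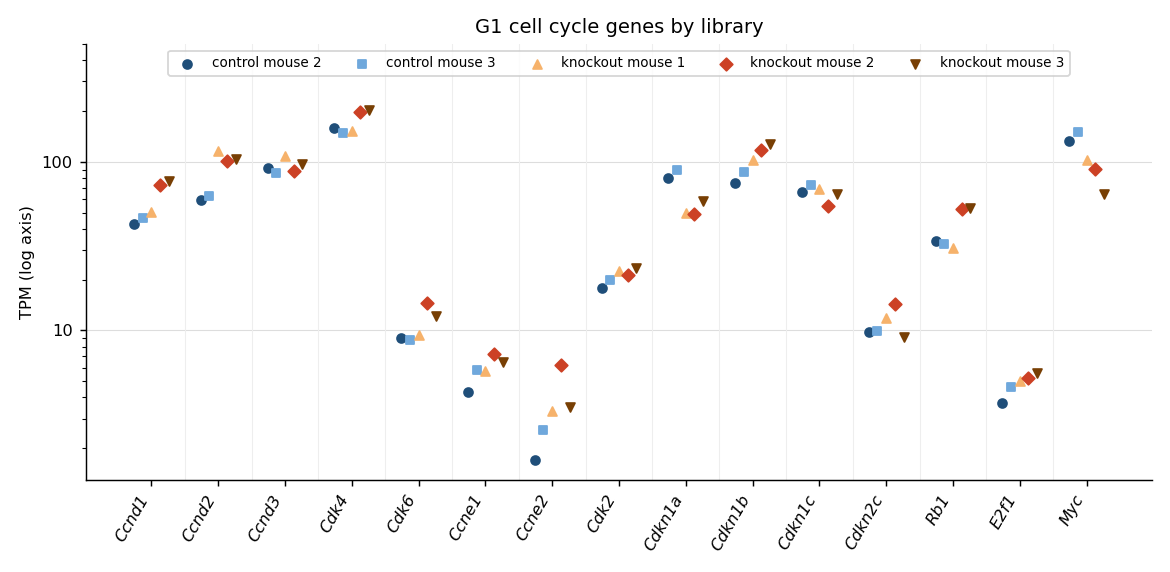
TPM of the 15 G1 members on a log axis, with a symbol for each of the 5 libraries. Ccnd2 and Cdkn1b lie higher and Cdkn1a and Myc lower in all 3 knockout libraries than in both controls, while Ccnd3, Cdkn1c and Cdkn2c overlap.

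Leaving out knockout mouse 1 changed the calls of the G1 members. That library was the only one labelled knockout with Esr1 below the controls, at 28.9 TPM against 83.3 and 77.6 TPM. The calls without it set the controls against knockout mice 2 and 3, where Esr1 was 85.0 and 169.9 TPM, above both controls. The log2 fold change of Esr1 was 0.57 in that comparison (SE 0.31, limma adjusted p 0.261). Of the 41 members, 4 then passed an adjusted p of 0.05 in the higher direction (Ccnd1, Ccnd2, Cdkn1b and Rb1), where 5.35% of tested genes passed, and 2 in the lower direction (Cdkn1a and Myc), where 2.63% passed. All 6 were G1 members, and 0 of 11 S-phase and 0 of 15 mitotic members passed. At these shares of tested genes, 0 in lists of 11 and 15 does not set those groups apart. Some mitotic members had larger fold changes than Ccnd2 at larger standard errors. Without knockout mouse 1 these included Cks1b, at 0.82 (SE 0.19, limma adjusted p 0.0560), and Top2a, at 0.94 (SE 0.29, limma adjusted p 0.0993). The SE of Ccnd2 was 0.11. Without that library the limma log2 fold change was 0.73 for Ccnd2 (adjusted p 0.0256), 0.73 for Ccnd1 (adjusted p 0.0281), 0.65 for Rb1 (adjusted p 0.0336), 0.60 for Cdkn1b (adjusted p 0.0471), -0.66 for Cdkn1a (adjusted p 0.0451) and -0.88 for Myc (adjusted p 0.0430). Across all alternatives the limma adjusted p of Ccnd2 ran from 0.0205 to 0.830, so the call rests on which libraries are included and how they are weighted. The fold changes of Ccnd2, from 0.65 to 0.84, and of Cdkn1a, from -0.83 to -0.62, kept their direction under every alternative run. In the same comparison without knockout mouse 1, 6 of 10 epithelial markers (Epcam, Cdh1, Krt8, Krt18, Pax8 and Ovgp1) and 3 of 6 granulosa markers passed in the higher direction, and 3 of 8 immune markers (Lyz2, Adgre1 and Csf1r) in the lower direction. Among 6 mesothelial markers 1 passed as higher (Wt1) and 3 as lower (Msln, Upk3b and Lrrn4), and stromal Lum and smooth muscle Des also passed as lower. Their part in the calls of the G1 members was not tested.

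The S-phase members differed little between the groups, with ratios of means from 0.881 for Pcna to 1.52 for Mcm6. The helicase subunits Mcm2 to Mcm7, which open the DNA at origins, lay between 6.71 and 28.03 TPM in every library. Mcm6 was the S-phase member with the highest fold change. It measured 10.1 and 9.004 TPM in the controls against 15.003, 16.6 and 12.2 TPM, with no overlap (log2 fold change 0.55, SE 0.21, limma adjusted p 0.343). Mcm2 measured 10.5 and 10.004 TPM in the controls against 12.9, 13.2 and 12.1 TPM, and Mcm7 measured 21.9 and 22.2 TPM against 24.7, 26.5 and 26.7 TPM. Mcm4 measured 19.6 and 25.0 TPM in the controls against 26.6, 27.5 and 28.03 TPM, so control mouse 3 came close to the knockout libraries. These separations were narrow, with ratios of means between 1.18 and 1.24 for Mcm2, Mcm4 and Mcm7. Mcm3 and Mcm5 overlapped, with knockout mouse 2 the highest library at 22.8 and 11.8 TPM and knockout mouse 3 the lowest at 12.3 and 6.71 TPM. Subunits of the same ring therefore did not share an order of libraries.

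The other S-phase members were mixed. Pcna, the sliding clamp of the polymerases, was the most abundant of them and measured 93.8 and 114 TPM in the controls against 94.9, 96.7 and 83.5 TPM (log2 fold change -0.18, SE 0.17, limma adjusted p 0.632). The estimate was -0.32 without control mouse 2 and -0.035 without control mouse 3. Cdc6, which loads the helicase, was the least abundant, between 2.10 and 3.31 TPM in all libraries. The nucleotide enzymes were Rrm1 and Rrm2, the large and small subunits of ribonucleotide reductase, and Tyms, the thymidylate synthase. Rrm1 measured 17.9 and 23.0 TPM in the controls against 22.4, 25.2 and 24.1 TPM, and Rrm2 measured 7.34 and 7.53 TPM in the controls against 10.4, 12.2 and 7.22 TPM. Tyms measured 6.45 and 5.18 TPM in the controls against 6.74, 6.75 and 8.29 TPM, above both controls by a small margin. Of these only Tyms separated the groups.

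The mitotic members other than Cks1b lay at or below 20.6 TPM, and they differed more between the controls than the other groups did (median ratio of control mouse 3 to control mouse 2 of 1.64, against 1.11 for the G1 and 1.01 for the S-phase members). Top2a, which untangles sister chromatids, measured 5.48 and 9.21 TPM in the controls against 19.1, 17.5 and 12.3 TPM. All 3 knockout libraries were above both controls, with means of 7.35 ± 2.64 TPM (SD, n = 2) and 16.3 ± 3.57 TPM (SD, n = 3), a ratio of 2.22. This was the largest estimate among the members, 1.06 on the log2 scale (SE 0.29, limma adjusted p 0.224). It was 0.74 without control mouse 2 and 1.39 without control mouse 3. Tpx2, a spindle assembly factor that activates Aurora A, measured 3.29 and 4.68 TPM in the controls against 8.53, 9.05 and 6.10 TPM (log2 fold change 0.83, SE 0.26, limma adjusted p 0.284). Cenpe, a kinetochore motor, measured 1.96 and 2.98 TPM in the controls against 3.60, 4.20 and 3.26 TPM, while Birc5 (survivin) measured 2.12 and 2.29 TPM against 2.47, 3.04 and 2.32 TPM. These 4 separated the groups, Birc5 only narrowly.

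Control mouse 2 held the lowest value of 11 of the 15 mitotic members, where it held the lowest value of 13.2% of all tested genes. Knockout mouse 2 held the highest value of 11 of the 15, where it held the highest value of 25.2% of all tested genes. Control mouse 3 stood at more than 1.5 times control mouse 2 for 9 mitotic members, 1 G1 member (Ccne2) and 0 S-phase members, and for 11.4% of all tested genes. Ccnb2 (cyclin B2), whose promoter is shown above, measured 3.97 and 14.4 TPM in the controls against 13.1, 20.6 and 11.3 TPM. Control mouse 3 thus lay among the knockout libraries, and the log2 fold change of 0.83 (SE 0.49, limma adjusted p 0.468) was 0.018 without control mouse 2 and 1.65 without control mouse 3. Bub1, a kinase of the spindle checkpoint, measured 0.794 and 2.27 TPM in the controls against 2.86, 5.74 and 2.21 TPM. Its log2 fold change was 0.85 with all libraries, 0.42 without control mouse 2 and 1.29 without control mouse 3.

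A further 4 mitotic members shared an order of libraries, with control mouse 2 lowest and knockout mouse 2 highest. Mki67, the marker of cycling cells, measured 7.12 and 11.7 TPM in the controls against 17.8, 19.2 and 11.3 TPM. Cdk1 measured 2.04 and 4.22 TPM against 5.50, 7.45 and 3.92 TPM, and its partner Ccnb1 measured 2.81 and 5.68 TPM against 5.82, 10.2 and 4.98 TPM. Ccna2 (cyclin A2, which works with Cdk2 and Cdk1) measured 3.05 and 6.25 TPM in the controls against 7.26, 12.8 and 6.17 TPM. In these 4 genes, knockout mice 1 and 2 were above both controls and knockout mouse 3 was under control mouse 3. The log2 fold changes without control mouse 2 were 0.40 for Mki67, 0.31 for Cdk1, 0.20 for Ccnb1 and 0.37 for Ccna2, against 0.72, 0.70, 0.61 and 0.79 with all libraries. Without control mouse 3 they were 1.04, 1.09, 1.01 and 1.21. Of the 15 mitotic members, 12 in knockout mouse 1, 13 in knockout mouse 2 and 5 in knockout mouse 3 lay above both controls, against 20.8%, 47.5% and 40.9% of all tested genes. The share in knockout mouse 3, 33.3%, was near that of all genes and does not set the mitotic members apart in that library.

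**Figure D3:**
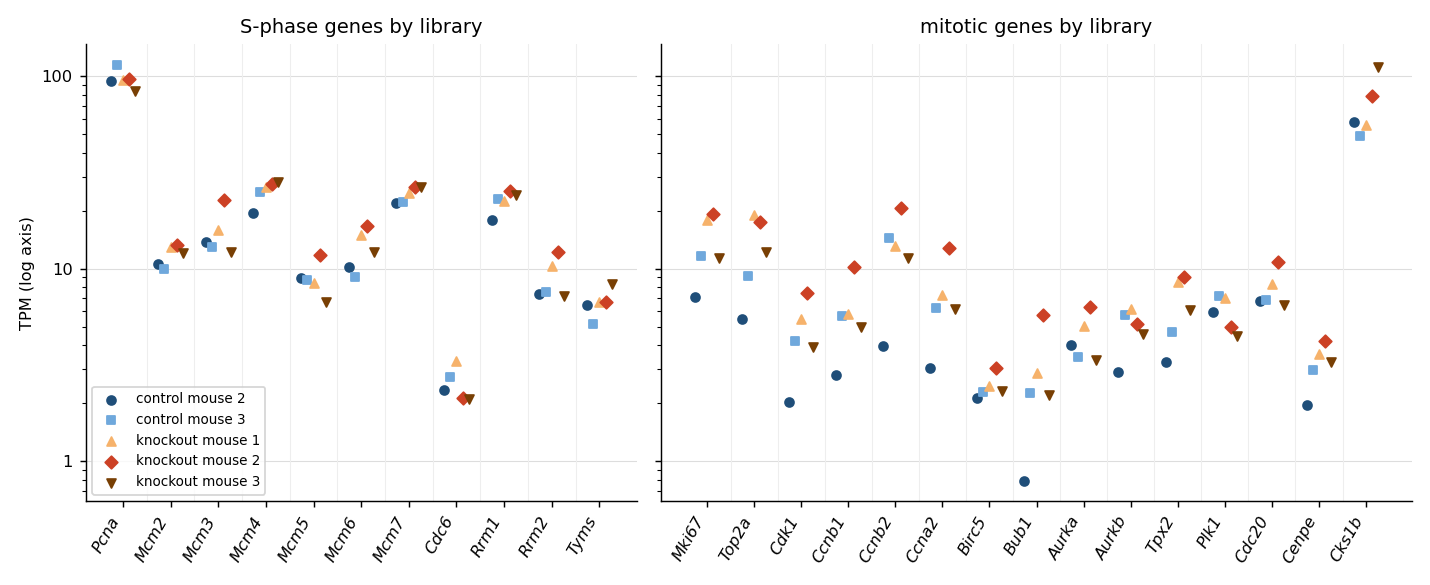
TPM of the 11 S-phase members (left) and the 15 mitotic members (right) on a shared log axis, with a symbol for each library. Control mouse 2 is the lowest library for 11 mitotic members and knockout mouse 2 the highest for 11, while no S-phase member differs by more than 1.5 times between the controls.

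The remaining mitotic members did not keep that order. Plk1, the Polo-like kinase, measured 5.92 and 7.24 TPM in the controls against 7.02, 4.98 and 4.49 TPM, and it was the only mitotic member with a log2 fold change below 0, at -0.24 (SE 0.26, limma adjusted p 0.673). That value became -0.40 when knockout mouse 1 was left out and -0.11 when control mouse 3 was. The Aurora kinases differed from each other. Aurka measured 3.99 and 3.46 TPM in the controls against 5.02, 6.35 and 3.34 TPM, and Aurkb, of the chromosomal passenger complex, measured 2.91 and 5.71 TPM against 6.21, 5.15 and 4.6001 TPM. The log2 fold change of Aurkb was 0.30 and turned to -0.095 without control mouse 2, and it was 0.69 without control mouse 3. Cdc20, the activator of the anaphase-promoting complex, measured 6.79 and 6.87 TPM in the controls against 8.32, 10.9 and 6.50 TPM. Cks1b, a small partner of the kinases that also helps to degrade p27, measured 57.4 and 49.0 TPM in the controls against 55.7, 79.1 and 112 TPM. It was far above the other mitotic members in every library, and its highest value was in knockout mouse 3, where the mitotic median was close to that of control mouse 3.

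**Figure D4:**
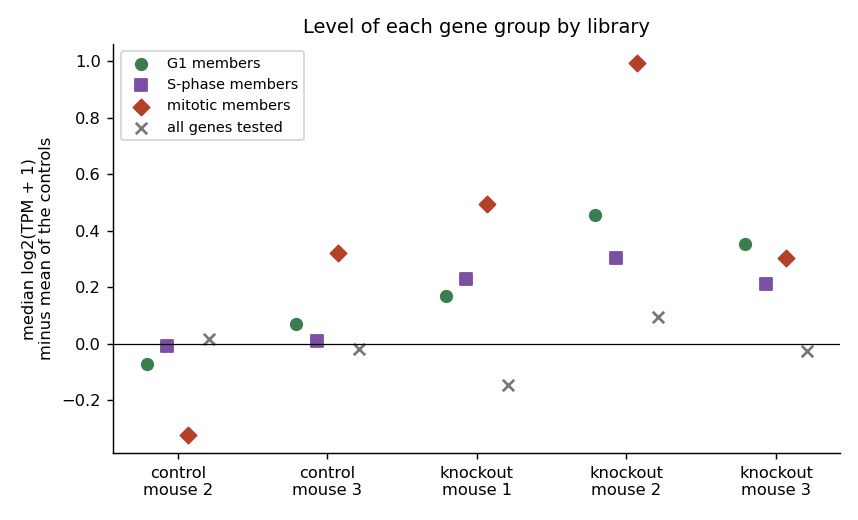
Median over the members of each group of log2(TPM + 1) minus the mean of the controls (vertical axis), for each library, with all 19292 tested genes as crosses. The mitotic median runs from -0.32 in control mouse 2 to 0.99 in knockout mouse 2, and that of knockout mouse 3 (0.30) is close to that of control mouse 3 (0.32).

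Set against the controls library by library, the groups of members differed in how far the libraries spread. The mitotic median of the log2 difference from the control mean was -0.32 and 0.32 in the controls against 0.49, 0.99 and 0.30 under the knockout label. For the S-phase members it was -0.0087 and 0.0087 in the controls and 0.23, 0.30 and 0.21 in the knockout libraries. For the G1 members it was -0.071 and 0.071 in the controls and 0.17, 0.45 and 0.35. The S-phase and G1 medians therefore lay above both controls in all 3 libraries labelled knockout, and the mitotic median did so in mice 1 and 2. Whether the groups of members differ from each other in this was not tested.

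Markers of granulosa cells, dividing cells of the ovarian follicle, moved with the mitotic members over part of the libraries. The 6 markers (Amh, Foxl2, Fshr, Cyp19a1, Inha and Nr5a1) summed to 32.6 and 71.3 TPM in control mice 2 and 3 and to 122, 198 and 219.9 TPM in knockout mice 1, 2 and 3. All 3 knockout libraries lay above both controls for 5 of the 6, against 11.9% of tested genes, and none of the 6 was at 0 in any library. Their sum, like most mitotic members, was lowest in control mouse 2, but in knockout mouse 3, where the mitotic members were near control mouse 3, it was the highest. Amh measured 1.76 and 4.73 TPM in the controls against 13.7, 23.8 and 14.6 TPM, highest in knockout mouse 2 as most mitotic members were. Foxl2, Fshr and Nr5a1 were also highest there, while Inha and Cyp19a1 were highest in knockout mouse 3. Cyp19a1, the marker that overlapped, measured 0.959 and 2.00 TPM in the controls against 7.33, 1.58 and 16.2 TPM. Foxl2 was nearly equal in the controls, at 17.0 and 16.6 TPM, while the other markers of the list were higher in control mouse 3. Whether granulosa cells were present, and what part they had in the values of the cell cycle genes, was not tested. The 8 endothelial markers (216.9 and 249.6 TPM in the controls, 166 to 276 TPM in the knockout libraries) and the 8 smooth muscle markers (559.7 to 808 TPM and 618 to 671 TPM) overlapped between the groups. The 6 mesothelial markers summed to 488 to 571 TPM in the controls and 310.2 to 425 TPM in the libraries labelled knockout. Of the 6, 2 lay above and 3 below both controls, against 11.9% and 21.9% of tested genes.

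**Figure D5:**
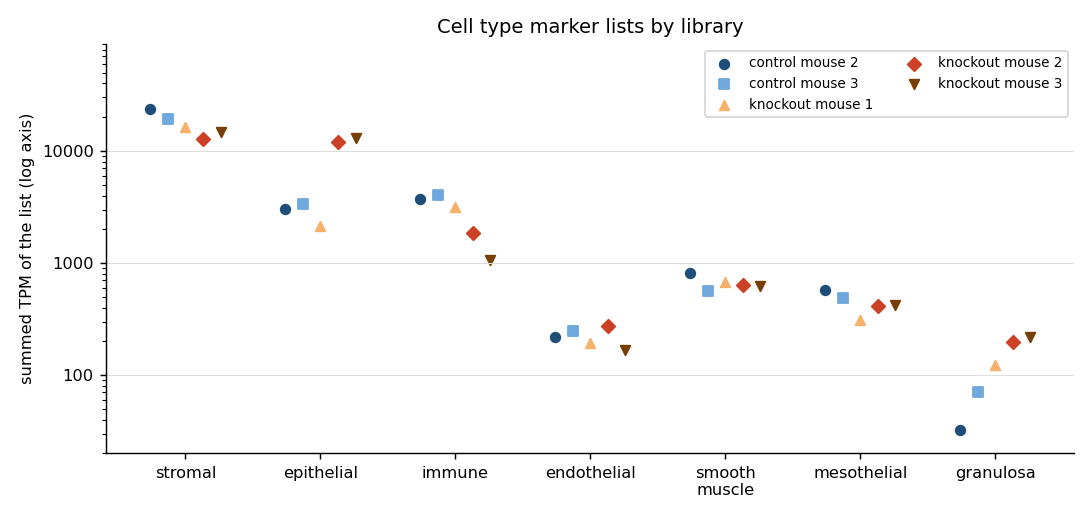
Summed TPM of each cell type marker list (log axis) with a symbol for each library. The granulosa sum is lowest in control mouse 2 and higher in the 3 knockout libraries, the epithelial sum is high in knockout mice 2 and 3, and the immune sum is lowest in knockout mouse 3.

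Further genes of the same pathways were listed by role. Their counts stand against the shares of all tested genes given above, 11.9% above and 21.9% below both controls, and 3.7% higher and 9.87% lower at an unadjusted p under 0.05. Of 25 other G1 genes, 0 passed an adjusted p of 0.05 in limma (3 were higher and 0 lower at an unadjusted p under 0.05), 11 lay above both controls in all 3 knockout libraries and 1 below. Mycn and Cdkn2b had the smallest p among them and did not pass. Mycn, a relative of Myc, measured 7.23 and 6.95 TPM in the controls against 9.25, 18.9 and 20.5 TPM (log2 fold change 1.02, limma adjusted p 0.303), a direction opposite to that of Myc. Cdkn2b (p15, an Ink4 inhibitor) measured 5.91 and 5.08 TPM in the controls against 7.47, 10.03 and 13.96 TPM (log2 fold change 0.79, limma adjusted p 0.327). Of 40 other replication genes, 0 passed in limma (4 higher and 0 lower unadjusted), with 10 above both controls and 2 below. Gins4 and Rpa3, a helicase cofactor and a subunit of the single-strand binding protein, had log2 fold changes of 0.50 and 0.56 (limma adjusted p 0.344 and 0.345). Of 40 other mitotic genes, 0 passed in limma (4 higher and 0 lower unadjusted), with 13 above both controls and 3 below and a median log2 fold change of 0.38. Anln (anillin, of the contractile ring) measured 4.13 and 4.10 TPM in the controls against 8.26, 11.7 and 6.78 TPM (log2 fold change 0.93, limma adjusted p 0.245), and Kif20a, a kinesin of cell division, had a log2 fold change of 0.76 (limma adjusted p 0.334). The controls were nearly equal for Anln, unlike for most mitotic members. Without knockout mouse 1, Mycn and Mycl of the other G1 genes and Gins4 of the replication genes passed in the higher direction, and 0 of the other mitotic genes did, where 5.35% of tested genes passed.

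Multiciliated cells of the oviduct reuse part of this machinery without dividing, so 10 genes of that program were listed as well. Of these, 0 passed in limma (0 higher and 2 lower unadjusted), 1 lay above both controls in all 3 knockout libraries and 4 below, against 11.9% and 21.9% of tested genes and 9.87% lower unadjusted. Ccno (cyclin O, needed to amplify centrioles) measured 5.06 and 7.26 TPM in the controls against 2.64, 3.19 and 3.35 TPM (log2 fold change -0.81, limma adjusted p 0.284). Cdc20b measured 2.81 and 4.96 TPM in the controls against 1.43, 2.26 and 0.424 TPM (log2 fold change -1.09, limma adjusted p 0.345). Both had the smallest p of that list and a direction opposite to that of most members. The list did not share that direction, with log2 fold changes above 0 for 4 of the 10 and below 0 for 6. Its sum was 95.2 and 124 TPM in the controls against 93.9, 188 and 131 TPM. Foxj1, of the same list, measured 63.1 and 78.8 TPM in the controls against 67.9, 149 and 100 TPM.

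Some members share exon sequence with a neighbour on the opposite strand, and the SMARTer kit named in the labels does not mark strand, so reads of both cannot be told apart. This applies to Cdk4 with Tspan31, Ccna2 with Exosc9, Ccne2 with Ints8, Cdk2 with Pmel, Mcm7 with Cops6 and Ap4m1, Ccnd3 with Bysl, Ccnd1 with the gene listed as LTO1, Ccnd2 with 9330179D12Rik, Rb1 with Rcbtb2 and Lpar6, and Cdc20 with Elovl1. Cdk4 and Tspan31 were at like levels, and Tspan31 measured 152 and 148 TPM in the controls against 133, 169.9 and 172 TPM. Ints8, Cops6, Exosc9 and Elovl1 stood above their members in every library. Ints8 measured 24.4 and 24.7 TPM in the controls against 23.2, 34.0 and 24.2 TPM, and Cops6 110 and 92.2 TPM against 95.6, 148 and 142 TPM. Exosc9 ran only from 26.4 to 31.1 TPM, and Elovl1 was lower in all 3 knockout libraries. The part of these neighbours in the values of the members was not tested. Pseudogene copies of Pcna, Tyms, Ccnb1, Ccnb2 and Ccnd3 and the retrocopy Cks1brt are annotated in RefSeq, so the levels of those members, and of Cks1b, are less certain.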

How the data were processed

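RNA was measured in 5 libraries, 1 per mouse, made from total RNA of sorted cells with a low-input SMARTer kit. The values are TPM that the authors deposited in 1 table. They sum to 1000000 in each library and keep no read numbers, so the depth is unknown. The build is mm10 per the submitters' processing notes, and the counter, annotation and versions are not given in the sources used here. Genes with at least 1 TPM in at least 2 libraries were kept, log2(TPM + 1) was fitted with limma 3.58.1 (R 4.3.3, lmFit and eBayes with trend) on genotype, and p-values were adjusted by Benjamini-Hochberg over all genes. The fit was tested on simulated data with independent noise in each library and a fixed shift in some genes. That simulation held no outlying library and no change of cell mix, so it does not show how such differences affect the calls. Groups came from the genotype labels. Alternatives changed the pseudocount, filter, scaling, weights, variance trend, replicate block and libraries. Named were all members, the 2 genes of smallest p in each further list where 0 passed, Esr1 and the marker lists. The members and lists were chosen with earlier results of these data known. Promoters were matched by symbol in RefSeq.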

Additional observations from a re-analysis of the deposited data

How the results depend on the processing

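Of 565 values of members under the alternatives, 536 kept their direction and side of the threshold, 15 passed it only under the alternative, and 14 changed sign. Calls moved most. Over all genes, 2 were called higher and 3 lower. The count of higher genes was 0 without the variance trend, 0 at a mean TPM of at least 5, 0 under median-of-ratios scaling, 0 under quantile normalization, 0 with a pseudocount of 0.1 and 1 without a filter. The count of lower genes was 0 at a mean TPM of at least 5, 0 with a pseudocount of 0.1 and 5 without Rpph1 and Rn45s. With library weights 260 were higher and 396 lower, members included with 1 higher (Ccnd2) and 1 lower (Cdkn1a). With the replicate number as a block 1165 were higher and 693 lower, and 5 members were higher (Ccnd1, Ccnd2, Cdkn1b, Cks1b and Rb1) and 2 lower (Cdkn1a and Myc). That block rests on mice 2 and 3 alone, since control mouse 1 is not among the libraries. The deviations of same-numbered mice from their group means had r = -0.06 and -0.07 across genes. With 2 controls the control deviations mirror each other, so these values are not independent. They cannot show whether same-numbered mice share more than a number. Under the block 61.4% of genes past an unadjusted p of 0.05 were higher.

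Leaving out 1 library at a time gave 0 to 1022 higher and 0 to 502 lower genes, 0 to 4 higher and 0 to 2 lower members, 17 to 26 members above and 2 to 5 below both controls, and median log2 fold changes of 0.20 to 0.37 (G1), 0.20 to 0.27 (S-phase) and 0.31 to 1.01 (mitotic). A lone control is assumed there to vary like the other group. The counts above and below both controls can only stay or rise when a library is left out, and no share of all genes was taken for them. The S-phase median was 0.23 under quantile normalization and 0.23 without Rpph1 and Rn45s. Among values near 0, Ccnd3 turned to -0.019 under quantile normalization, and Cdc6 to 0.014 under median-of-ratios scaling and 0.36 under quantile normalization. Mcm5 turned to 0.16 with weights, 0.031 under median-of-ratios scaling, 0.017 under quantile normalization and 0.014 with the block, and Esr1 to 0.15 with weights and 0.57 with the block. With 1 library left out the ranges were -0.095 to 0.69 for Aurkb, -0.18 to 0.057 for Cdc6, -0.21 to 0.16 for Mcm5 and -0.68 to 0.57 for Esr1. The cause was not tested. The number of libraries, 2 against 3, limits every call.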
